A study of Caenorhabditis elegans with 5 samples.

Results

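The regions described here are 319 stretches of chromosomes II, III and IV of Caenorhabditis elegans that carried a called H3K36me3 peak in both replicate 1 libraries, 1 of each genotype, and in neither replicate 2 library. They were found by merging the peaks of the 4 deposited lists wherever they shared at least 1 bp, which gave 7653 regions in the genome. Members had their midpoint in the central part of a chromosome, from 4.879 to 12.02 Mb on II, from 3.722 to 10.34 Mb on III or from 3.896 to 12.97 Mb on IV. These windows span 22.8 Mb and held 1864 merged regions, of which the members were 17.1%. In the whole genome 1392 regions had this pattern of peaks (18.2% of all merged regions). Members were thus chosen by the presence and absence of peaks in the 4 lists, so the pattern itself and the counts that follow from it are descriptions and were not tested.

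The study used chromatin immunoprecipitation followed by sequencing (ChIP-seq) with an H3K36me3 antibody to profile the progeny of animals that lack both SPR-5 and MET-2. The double mutant spr-5; met-2 carried the alleles spr-5(by101) on chromosome I and met-2(n4256) on chromosome III, and it was set against the wild-type strain N2. There were 2 libraries of each genotype, plus 1 input library of N2 that was not analysed here. All came from whole first-stage (L1) larvae starved after hatching, 600 per sample, from cultures kept at 20 °C and with no treatment. The labels number the libraries 1 and 2 and do not say whether these were separate cultures, so any spread between them may be partly technical. A whole larva is almost entirely somatic tissue with a pair of germline precursors, so the lists cannot say which cells carried the mark. In a population of cells, marking in fewer cells and weaker marking per cell cannot be told apart.

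H3K36me3 is trimethylation of lysine on the histone H3 tail, and it is found over genes that are being transcribed. In the worm MET-1 places it during transcription, while MES-4 maintains it on genes that were expressed in the parental germline and carries it into the embryo. SPR-5 removes methyl groups from H3K4 and MET-2 adds them to H3K9, and together they reset chromatin between generations. The central parts of worm autosomes are rich in conserved and widely expressed genes, whereas the arms hold more repeats and H3K9 methylation.

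The lists differed in size by replicate number. The replicate 1 lists held 5886 (mutant) and 5507 (N2) peaks, and the replicate 2 lists held 1938 (mutant) and 3878 (N2). Median peak width was 799.5 bp (mutant) and 822 bp (N2) in replicate 1, and 166 bp (mutant) and 179 bp (N2) in replicate 2. In the central windows, peaks covered 13.0% of the sequence in mutant replicate 1, 1.30% in mutant replicate 2, 13.3% in N2 replicate 1 and 2.83% in N2 replicate 2. Read depth, enrichment and the caller's scores are not in the lists, so absence from a replicate 2 list means only that the region did not reach the authors' threshold there. The part of library quality in the membership of each region was not tested.

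Members made up a sizeable part of the replicate 1 calls in these windows. They held 338 peaks in mutant replicate 1, which were 21.9% of that library's central peaks, and 331 peaks in N2 replicate 1 (22.5%). By length their part was smaller, at 397 kb (13.4% of the covered central sequence) in mutant replicate 1 and 415 kb (13.7%) in N2 replicate 1. Members were thus shorter than the average central peak. With presence in a list taken as cover of at least 50% of a region, 658 regions met the rule. Their median distance to the nearest replicate 2 peak was 0 bp, so many of them held replicate 2 peaks too short to count.

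All 3 chromosomes contributed, with 99 members on II, 111 on III and 109 on IV. Per Mb of window this was 13.9 on II, 16.8 on III and 12.0 on IV. Regions in all 4 lists, which are called domains here, followed the same order, at 19.9 per Mb on II, 26.7 on III and 14.1 on IV. Of the central regions called in both replicate 1 lists, members were 30.0% of 330 on II, 26.7% of 415 on III and 31.1% of 350 on IV, so the share without any replicate 2 peak was close to equal across the chromosomes. On the arms of the same chromosomes the share was higher, at 48.4% of 312 on II, 37.7% of 406 on III and 42.8% of 290 on IV. In all, 29.1% of 1095 central regions lacked a replicate 2 peak, against 42.5% of 1008 arm regions and 36.9% of 1749 regions on I, V and X.

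Within the windows the members were spread along the whole length. Each full 1 Mb bin held 9 to 19 members on II, 11 to 24 on III and 5 to 17 on IV. The largest number, 24, lay in the first Mb of the III window, and the smallest, 5, in the second Mb of the IV window. Chromosome IV was the least even: the first 3 bins held 9, 5 and 7 members, and the other 6 held 11 to 17. In its seventh bin members (17) outnumbered domains (7), and members were 40.5% of the 42 regions called in both replicate 1 lists there.

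**Figure D1:**
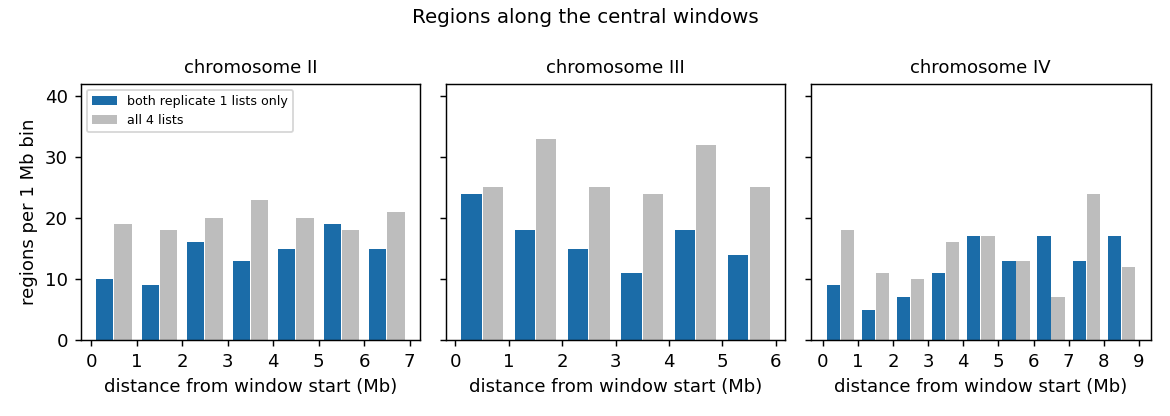
Number of regions per 1 Mb bin (y axis) against the distance from the start of each central window (x axis, Mb), for regions in both replicate 1 lists only (blue) and in all 4 lists (grey). Members occur in every bin, from 5 to 24 per Mb, and exceed the domains in 3 bins, 1 on II and 2 on IV.

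Most members stood alone. Of the 319, 218 had no other member as the next region on either side, 80 formed pairs and 12 formed runs of 3. The longest run held 5 members and lay on chromosome IV from 8774426 to 8829343 (ce10). In it peaks covered 3575 bp in mutant replicate 1 and 1511 bp in N2 replicate 1. On 110 of the members' 638 sides (17.2%) the next region was itself a member, compared with 17.1% of the sides of all central regions. A domain was the next region on 24.3% of the members' sides and on 24.0% of the sides of all central regions. The largest of the departures was for a peak of N2 replicate 2 alone, found on 12.1% of the members' sides against 7.83% for all central regions. Members hold no N2 replicate 2 peak by the rule, whereas many central regions do, and peaks of a list lie at least 1201 bp apart. This departure is therefore in part built into the rule. Peaks of mutant replicate 2 alone were next to members on 2.51% of sides, against 2.41%. Neighbours of 1 region are shared with the next, so these shares carry no test.

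Members were narrower than domains with all peaks kept. Their merged width had a median of 1341 bp, with quartiles of 716 and 2110 bp and a full range of 80 to 11465 bp. Domains of the same windows had a median of 3956 bp, and central regions with a peak in exactly 1 replicate 2 list had a median of 2581 bp. Arm regions with the members' pattern were as narrow as members (median 1330 bp), and those on I, V and X had a median of 1180 bp. A region can only gain width as more lists meet in it, so the step in width between these classes is in part built into the merging. The order turned when presence required cover of at least 50% of a region, with 3144.5 bp in members and 103 bp in the 45 domains left. In that setting a long region that holds a short replicate 2 peak can count as a member and not as a domain. Median member width was 2656 bp with peaks of at least 500 bp, 437 bp without mutant replicate 1 and 389 bp without N2 replicate 1.

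Members take their extent from the replicate 1 lists alone, and domains take theirs from all 4 lists. The length covered in the replicate 1 lists was also shorter in members. In members it had a median of 890 bp in mutant replicate 1 and 969 bp in N2 replicate 1. In domains the medians were 3196 bp in mutant replicate 1 and 3306 bp in N2 replicate 1. Of the members, 22 averaged under 250 bp over both lists, 60 were between 250 and 500 bp, 87 between 500 and 1000 bp, 94 between 1000 and 2000 bp, 42 between 2000 and 4000 bp, and 14 averaged 4000 bp or more. Between 250 and 500 bp, 81.1% of the 74 central regions called in both replicate 1 lists had no replicate 2 peak, and the share fell with each longer class to 60.0%, 37.3%, 14.1% and finally 5.71% of 245. An overlap of 1 bp with a replicate 2 peak ends membership, and a longer region has more room for one. The fall with length is thus in part built into the rule.

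The shortest class broke this order. Only 26.8% of the 82 central regions averaging under 250 bp lacked a replicate 2 peak, and 44 of these 82 were in all 4 lists. Very short intervals were therefore mostly called in replicate 2 as well, and members were few among them. The arms followed a similar course, with 35.4% under 250 bp, 77.1% from 250 to 500 bp and 5.33% at 4000 bp or more. The zones differed most between 2000 and 4000 bp, where 14.1% of the 297 central regions lacked a replicate 2 peak against 28.9% of 225 arm regions.

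**Figure D2:**
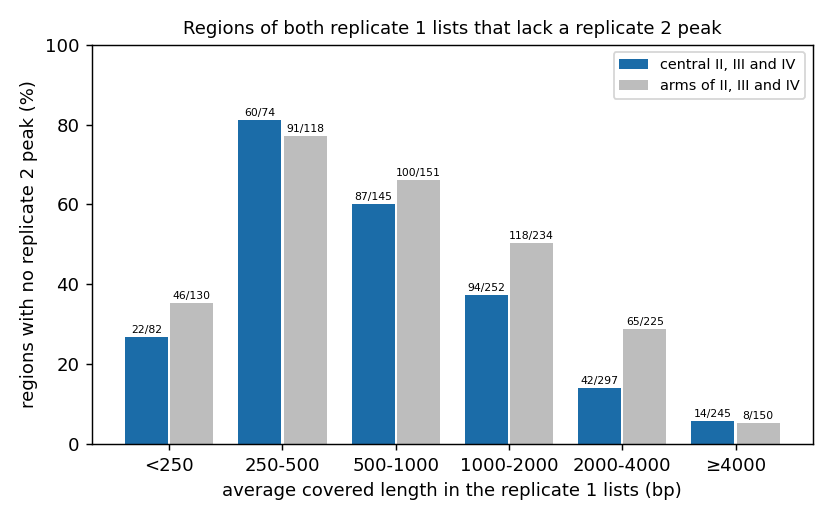
Share of the regions called in both replicate 1 lists that had no replicate 2 peak (y axis, %), by average covered length in the replicate 1 lists (x axis, bp), for the centre (blue) and the arms (grey) of II, III and IV. Numbers above the bars are regions without a replicate 2 peak out of all in the class. The share peaks at 81.1% between 250 and 500 bp in the centre and is 5.71% at 4000 bp or more. A longer region has more room for a replicate 2 peak, so the fall is in part built into the rule.

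The 14 members averaging at least 4000 bp are long peaks of replicate 1 with no replicate 2 peak, a status shared by few regions of their length. There were 5 on II, 4 on III and 5 on IV. The longest lay on chromosome IV from 12272452 to 12283916 (ce10), and peaks covered 7828 bp of it in mutant replicate 1 and 10727 bp in N2 replicate 1. It was a single peak in N2 and 3 peaks in the mutant, and the nearest N2 replicate 2 peak was 642 bp away. The next on IV, from 4371919 to 4377289, was covered over 5192 bp in mutant replicate 1 and 5371 bp in N2 replicate 1. Here the genotypes shared 5192 bp, and the nearest replicate 2 peaks were 10748 bp (mutant) and 6603 bp (N2) away. Further long members on IV ran from 11177807 to 11184454 (5022 bp in the mutant, 5320 bp in N2) and from 7992372 to 7998282 (4208 bp in the mutant, 5911 bp in N2).

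On chromosome III the 4 longest members by average covered length, a ranking that favours regions alike in both lists, were covered to a similar extent in both genotypes. The first, from 5908709 to 5914292 (ce10), had 4989 bp in mutant replicate 1 and 5504 bp in N2 replicate 1. The second, from 5203982 to 5208948, had 4347 bp in the mutant and 4967 bp in N2. The third, from 4796861 to 4801370, was the only one of these 4 that was longer in the mutant, with 4510 bp against 3725 bp in N2. The fourth, from 3903350 to 3907661, had 3915 bp in the mutant and 4312 bp in N2. Each was a single peak in each genotype, and their Jaccard indices (base pairs shared by both genotypes divided by base pairs in either) lay between 0.83 and 0.91.

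On chromosome II the long members were less alike. The first by average length, from 11112043 to 11120139 (ce10), was 1 peak of 8097 bp in mutant replicate 1, and in N2 replicate 1 it was 3 separate peaks that covered 2435 bp, a 3.33-fold difference. By contrast, the region from 7599257 to 7604623 was covered over 5367 bp in the mutant and 4893 bp in N2. The region from 8651321 to 8658210 was covered over 4322 bp in the mutant and 5529 bp in N2, in 2 peaks each. The fourth, from 7014005 to 7019850, was 2 peaks of 2602 bp in all in the mutant and 1 peak of 5846 bp in N2. Of the 14 long members, 1 was at least 1.5-fold longer in the mutant and 1 at least 1.5-fold shorter.

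The question the design poses is whether H3K36me3 differs between spr-5; met-2 and N2, and at these regions it can be asked in replicate 1 alone. The rule asks the same of both genotypes, so the ratio of covered lengths was not used to choose the members. With 1 library of each genotype there is no replicate check, and no p-value is given. Covered length was close to equal in sum, at 397 kb in the mutant and 415 kb in N2, a ratio of 0.959. The median log2 ratio (mutant over N2) was -0.08, with quartiles of -0.97 and 0.72. The mutant peak was longer in 152 members and the N2 peak in 167.

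Single members nevertheless differed widely, and in both directions. In 96 members the mutant covered at least 1.5 times the N2 length (30.1%, against 22.6% of the 3852 regions called in both replicate 1 lists anywhere). In 101 the mutant length was at least 1.5-fold lower (31.7%, against 21.8%). At 2-fold the counts were 64 higher (20.1%, against 14.8%) and 77 lower (24.1%, against 14.1%). Without N2 replicate 2 in the rule, 578 regions qualified, of which 143 were at least 1.5-fold higher and 170 at least 1.5-fold lower. These larger counts come from a larger set of regions, and the share over all regions was not computed for that setting. Domains of the same windows were steadier, with 53 of 447 (11.9%) higher and 59 (13.2%) lower at 1.5-fold. Central regions with 1 replicate 2 list lay between, at 20.7% higher and 24.9% lower. Regions with the members' pattern elsewhere were about as unequal as members. They had 28.1% higher and 30.5% lower on I, V and X, and 36.2% and 26.6% on the arms. The wide spread was thus not particular to the central windows. The median ratio of members stayed near 0, as did that of all 3852 regions (-0.02).

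The shares past the fold depended on length. Among the 150 members averaging at least 1000 bp, 37 (24.7%) were higher in the mutant and 33 (22.0%) lower, close to the shares of all 3852 regions, and against 19.4% and 18.3% of the 2428 regions of that length in both replicate 1 lists. Among the 169 shorter members, 59 (34.9%) were higher and 68 (40.2%) lower, against 27.9% and 27.7% of the 1424 regions under 1000 bp. Set against domains by length class, 9 of 22 members under 250 bp (40.9%) were past 1.5-fold in either direction, and 6 of 44 domains (13.6%). Between 250 and 500 bp these were 48 of 60 members (80.0%) and all 3 domains. Among members averaging 500 to 1000 bp, 70 of 87 (80.5%) were past the fold, against 9 of 18 domains (50.0%). Between 1000 and 2000 bp the shares were 45.7% of 94 members and 38.7% of 62 domains. Between 2000 and 4000 bp they were 59.5% of 42 members and 25.0% of 136 domains. At 4000 bp or more they were 14.3% of 14 members and 19.6% of 184 domains. The share was thus higher in members in 4 of the 6 classes, and the domain classes from 250 to 1000 bp hold few regions.

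**Figure D3:**
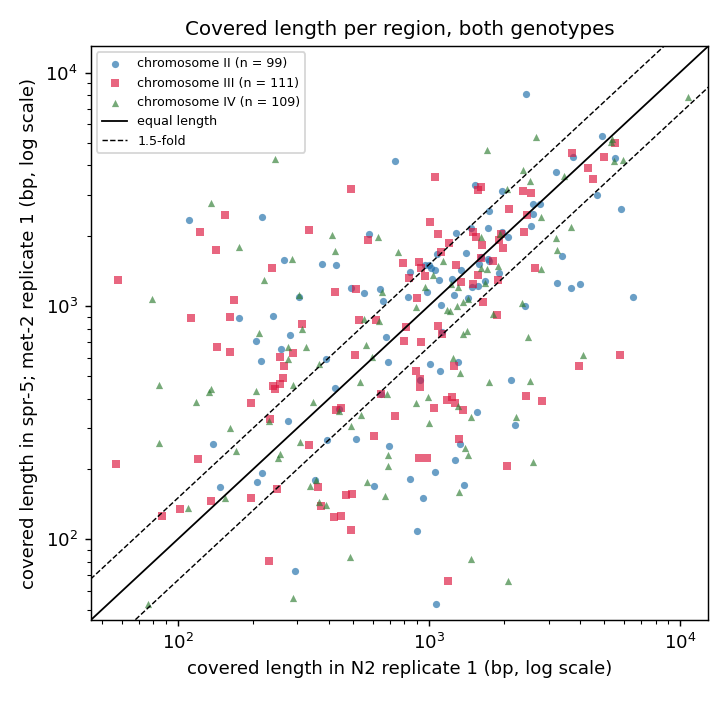
Covered length of each of the 319 regions in spr-5; met-2 replicate 1 (y axis, bp) against N2 replicate 1 (x axis, bp), both on log scales, by chromosome. The solid line marks equal length and the dashed lines 1.5-fold differences; 96 regions lie on or above the upper dashed line and 101 on or below the lower one.

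The chromosomes differed little in this balance. On II the sum of covered length was 136 kb in the mutant and 142 kb in N2 (ratio 0.962), with 27 members at least 1.5-fold higher and 29 lower. On III it was 131 kb in the mutant and 128 kb in N2 (ratio 1.02), with 38 higher and 33 lower. On IV it was 131 kb in the mutant and 144 kb in N2 (ratio 0.904), with 31 higher and 39 lower and a median log2 ratio of -0.18. The sums for the 3 chromosomes therefore lay on both sides of equality. The shares of members higher and lower were 27.3% and 29.3% on II, 34.2% and 29.7% on III, and 28.4% and 35.8% on IV. All central regions in both replicate 1 lists, members included, had lower shares. These were 17.0% and 20.3% on II, 21.0% and 21.4% on III, and 21.1% and 24.6% on IV.

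Arm regions with the same peak pattern leaned towards the mutant on every one of these chromosomes. Their covered length was 179 kb in the mutant and 141 kb in N2 on II (ratio 1.27), 200 kb against 170 kb on III (1.17), and 158 kb against 123 kb on IV (1.28). Together this was 536 kb in the mutant and 434 kb in N2, a ratio of 1.23 where members had 0.959. In 155 of the 428 arm regions the mutant was at least 1.5-fold higher (36.2%) and in 114 at least 1.5-fold lower (26.6%). Arm regions in all 4 lists had a smaller lean, with a ratio of 1.06 (1.04 on II, 1.04 on III and 1.10 on IV), where central domains had 0.977. These ratios rest on 1 library per genotype and were not tested.

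The members with the most unequal lengths had a long peak in one genotype and a remnant in the other. The following were chosen as the extremes among members averaging at least 1000 bp, so their size is a description. On II, the region from 7193053 to 7195395 (ce10) was covered over 2343 bp in mutant replicate 1 and 111 bp in N2 replicate 1, a 21.1-fold difference. The region from 11968633 to 11971030 had 2398 bp in the mutant and 217 bp in N2 (11.1-fold). In the other direction, the region from 10779523 to 10781721 had 309 bp in the mutant and 2199 bp in N2 (7.12-fold higher in N2). The region from 11579365 to 11585884 had 1088 bp in the mutant and 6520 bp in N2 (5.99-fold higher in N2), and it was the widest of these 4.

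On III, the extremes on the mutant side ran from 6871158 to 6873234, with 2077 bp in the mutant and 123 bp in N2, and from 6926329 to 6928772, with 2444 bp in the mutant and 154 bp in N2. On the N2 side the region from 8112260 to 8118039 had 616 bp in the mutant and 5780 bp in N2, and the region from 4520978 to 4523018 had 206 bp in the mutant and 2041 bp in N2. On all 4 of these the shorter peak lay wholly within the longer one.

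On IV, the region from 8510359 to 8514600 was covered over 4242 bp in the mutant and 245 bp in N2, where the 245 bp were split over 2 peaks. The region from 11483140 to 11485887 had 2748 bp in the mutant and 136 bp in N2, and an N2 replicate 2 peak lay 24 bp outside it. The most unequal of these members favoured N2: from 10837235 to 10839298, peaks covered 66 bp in the mutant and 2064 bp in N2, a 31.3-fold difference. The region from 10097188 to 10099797 had 214 bp in the mutant and 2610 bp in N2. A call of presence in both genotypes thus included regions where one list held little more than its shortest peaks, which were 53 bp in mutant replicate 1 and 57 bp in N2 replicate 1.

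At the other end, some members had nearly the same borders in both genotypes. The member of at least 1000 bp with the highest Jaccard index on II lay from 7073912 to 7076683 (ce10) and was covered over 2736 bp in the mutant and 2772 bp in N2, all 2736 bp shared (index 0.99). On III it lay from 5461958 to 5463901, with 1919 bp in the mutant, 1907 bp in N2 and 1882 bp shared (index 0.97). On IV it was the region of 5371 bp that starts at 4371919, described above (index 0.97).

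Taken over all members, the borders agreed less than in domains. The median Jaccard index was 0.42 in members, 0.60 in central regions with 1 replicate 2 list and 0.75 in domains. In members it moved to 0.634 once peaks under 500 bp were dropped, and to 0.714 when presence required 50% cover. Both settings remove regions with only a short remnant in one list, so part of this rise is built in. They also let regions that hold short replicate 2 peaks count as members. Members then numbered 461 and 658, and domains fell from 447 to 104 and 45. The 2 values thus describe a partly different set of regions. The index was under 0.2 in 82 members (25.7%) and in 9 domains (2.01%), and at least 0.8 in 38 members (11.9%) and 181 domains (40.5%). Arm regions with the members' pattern had a median of 0.39 and those on I, V and X of 0.41, so the median was about as low in each of these groups as in members. At 1000 to 2000 bp the median was 0.57 in members and 0.72 in domains, and at 2000 to 4000 bp it was 0.55 in members and 0.77 in domains. At 4000 bp or more it was 0.74 in the 14 members and 0.75 in the 184 domains.

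**Figure D4:**
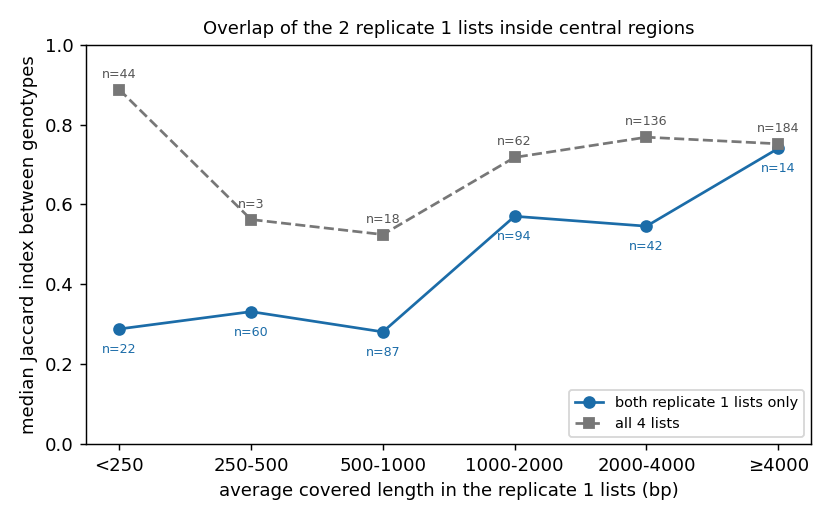
Median Jaccard index between spr-5; met-2 and N2 replicate 1 peaks inside central regions (y axis) by average covered length (x axis, bp), for regions in both replicate 1 lists only (blue circles) and in all 4 lists (grey squares), with the number of regions in each class. Members lie below domains in every class, by the least at 4000 bp or more (0.74 and 0.75), and 2 of the domain classes hold under 20 regions.

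The peaks inside a member were laid out in several ways. In 292 of the 319 members each genotype had a single peak. The mutant peaks lay wholly inside the N2 peaks in 88 members, the N2 peaks lay wholly inside the mutant peaks in 80, and in 151 the peaks were staggered or broken so that each genotype held sequence of its own. The outer borders differed by a median of 191 bp at the lower coordinate and 220 bp at the higher one. In domains these medians were 175 and 145 bp. Both borders agreed within 100 bp in 25 members (7.84%) and in 76 domains (17.0%). The share was 8.21% in central regions with 1 replicate 2 list. Among regions with the members' pattern it was 14.3% on the arms and 13.5% on I, V and X. A broken call was uncommon, with more than 1 peak in 17 members in the mutant and in 11 in N2.

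By the rule no replicate 2 peak overlaps a member, but replicate 2 peaks often lay nearby. The nearest peak of mutant replicate 2 was a median of 7886 bp away (quartiles 3545 and 25748 bp), and the nearest of N2 replicate 2 was 4193 bp away (quartiles 2003 and 8845 bp). The N2 peak was the closer one for 233 members and the mutant peak for 85. The N2 replicate 2 list has more peaks than that of the mutant, 1135 against 706 in these windows, and this was not adjusted for. Of the members, 5 had a mutant replicate 2 peak within 1 kb, and 33 had one of N2 (10.3%). More than 20 kb from any replicate 2 peak were 23 members (7.21%).

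**Figure D5:**
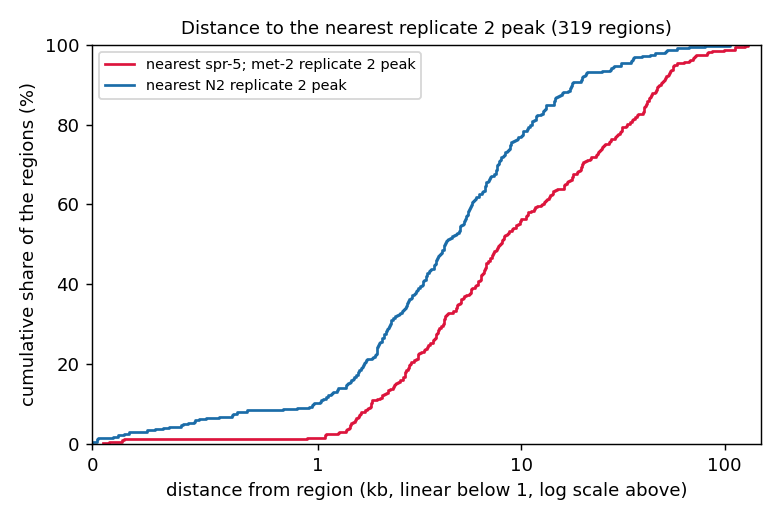
Cumulative share of the 319 regions (y axis, %) by distance to the nearest spr-5; met-2 replicate 2 peak (red) and N2 replicate 2 peak (blue) on the x axis (kb, linear below 1 and log above). The medians are 7886 bp for the mutant list and 4193 bp for the N2 list, and below 1 kb the curves reach 5 members for the mutant list and 33 for the N2 list.

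These distances were close to those of other weakly shared regions. Central regions called in 1 replicate 1 list only, 508 in all, lay a median of 8426 bp from the nearest mutant replicate 2 peak and 4744 bp from the nearest N2 one. For 37 of them (7.28%) an N2 replicate 2 peak was within 1 kb. The nearest region in all 4 lists was a median of 11329 bp from a member and 11798 bp from these regions.

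Around the members, coverage was a measure that all 4 libraries could have. In the 5 kb on each side, 2.76 Mb in all, peaks covered 11.8% in mutant replicate 1, 1.24% in mutant replicate 2, 11.6% in N2 replicate 1 and 3.33% in N2 replicate 2. The libraries split by replicate number, and within replicate 2 the N2 list covered more. The mean was 6.51 ± 7.46% in the mutant and 7.47 ± 5.86% in N2 (SD, n = 2 each), a difference of -0.956 percentage points that was smaller than the spread between replicates (exact two-sided permutation test, p = 1, where 0.333 is the lowest value that 4 libraries can give). Replicate number set these libraries so far apart that the genotype split could not give the largest difference. The value of 0.333 was thus out of reach, and this test cannot compare the genotypes. Within replicate 1 the difference between genotypes was 0.179 points and within replicate 2 it was -2.09 points. The sign of the difference in means turned with single libraries, to 3.15 points without N2 replicate 1 and 4.33 points without mutant replicate 2. Each of these settings leaves 1 genotype with a single list and changes the members, to 717 and 392 regions. The turn is thus in part built in by list size and is not a check of the genotype difference. The flanks of domains were emptier than those of members in all 4 libraries, at 7.36% in mutant replicate 1, 0.221% in mutant replicate 2, 7.39% in N2 replicate 1 and 0.805% in N2 replicate 2. Domains hold a peak of every list, and peaks of a list lie at least 1201 bp apart, so the nearest part of their flanks is empty by construction. For the replicate 1 lists this applies to members as well, and the difference there was not tested.

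Within 1 kb of the members, replicate 2 coverage came mostly from N2. Peaks covered 0.0699% of these flanks in mutant replicate 2 and 0.722% in N2 replicate 2. The replicate 1 lists covered 0.282% (mutant) and 0.402% (N2), values kept low because no peaks of a list lie closer together than 1201 bp. With 2 libraries of each genotype the difference of -0.386 points between genotype means had an exact permutation p of 0.333, the smallest possible. The rule holds replicate 1 coverage low next to members but not replicate 2 coverage, so this test cannot compare the genotypes. The N2 replicate 2 list also covered more of the central windows, 2.83% against 1.30% in mutant replicate 2.

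The edge of the rule was sharp in some places. The member nearest to a replicate 2 peak, on III from 3856091 to 3857897 (ce10), touched an N2 replicate 2 peak with no shared base pair, if starts are counted from 0 as in the BED format. The files do not state this. With touching peaks merged the rule gave 319 regions as well, but they were not all the same regions. The number at least 1.5-fold higher in the mutant was then 95 in place of 96. The member that touched the N2 replicate 2 peak was covered over 1733 bp in mutant replicate 1 and 142 bp in N2 replicate 1. The next, on II from 6608539 to 6609230, lay 1 bp from an N2 replicate 2 peak and had 577 bp in the mutant and 688 bp in N2. Just outside the rule, a region on IV from 7917841 to 7919478 had 1400 bp in mutant replicate 1 and 1125 bp in N2 replicate 1 and met replicate 2 peaks over 1 bp. Another, on III from 9048085 to 9050494, had 1363 bp in the mutant and 1763 bp in N2 and met an N2 replicate 2 peak over 11 bp. At the window borders, the member closest to an edge was 11.3 kb inside the start of the II window (1288 bp in the mutant, 1096 bp in N2). The closest arm region was 6.68 kb outside the end of the II window (1787 bp in the mutant, 868 bp in N2).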

How the data were processed

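Each ChIP library has its own deposited list of broad peaks in 3 columns (chromosome, start and end). The authors' values are thus positions only, and a peak carries neither a score nor a fold enrichment. The submitters' processing notes name FastQC, Bowtie2, deepTools, MACS2 and bedtools, and the build ce10, without versions or parameters. The control, threshold and read filters are not given in the sources used here. Read depth per library is unknown, so no interval that needs it is given.

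Starts were read as 0-based, as in the BED format, which the files do not state, and converted to 1-based positions. Peaks were merged on at least 1 bp of overlap, and touching peaks stayed apart. Covered length, Jaccard index and distances were computed with Python 3.11.15, numpy 2.4.6 and pandas 2.3.3, and checked on simulated lists. Flank coverage was compared by an exact two-sided permutation test over 6 assignments of the 4 libraries. The members, lists and tests were chosen with earlier results of these data known. Named regions are, per chromosome, the 4 longest members, the 2 highest and 2 lowest length ratios and the highest Jaccard index among members averaging at least 1000 bp, and those next to the edge of the rule. No genome or annotation of ce10 was used, so genes and sequence at the members were not analysed here. Alternatives tried were a 500 bp minimum peak width, presence as 50% cover, no replicate 2 peak within 1000 bp, merging across 1000 bp, leaving out each library, other flank sizes, a 2-fold limit and a replicate block. Merging touching peaks, and counting only members averaging at least 1000 bp, were added after the data were seen.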

Additional observations from a re-analysis of the deposited data

How the results depend on the processing

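Depth and peak scores are unknown, and each genotype has 1 library at these regions, so no setting bears on significance there. The number of members was 658 with presence as 50% cover, a setting that admits regions holding short replicate 2 peaks. It was 392 to 717 when 1 library was left out, which drops a condition of the rule. It was 658 without mutant replicate 1, 717 without N2 replicate 1 and 578 without N2 replicate 2. The median log2 ratio lay between -0.11 and -0.02 in every setting run. Members at least 1.5-fold higher and lower in the mutant numbered 37 and 33 among the 150 averaging at least 1000 bp (24.7% and 22.0%). Without mutant replicate 2 they numbered 118 higher and 114 lower among 392 regions. Without N2 replicate 2 they numbered 143 higher and 170 lower among 578 regions. The main rule gave 96 and 101 among 319, so the larger counts come with larger sets. The share over all regions was not computed for these settings. The median Jaccard index was 0.634 with peaks of at least 500 bp, 0.714 with 50% cover, 0.338 when merged across 1000 bp, and 0.454 to 0.51 without 1 replicate 2 library. The 500 bp and 50% settings bar short remnants and admit regions that hold short replicate 2 peaks, so part of the rise under them is built in. Median width was 2656 bp with peaks of at least 500 bp, 3144.5 bp with 50% cover, and 389 to 1810 bp with 1 library left out. As a ratio to the width of domains, which was 0.339, it was 0.447 with peaks of at least 500 bp, 30.5 with 50% cover (domains then numbered 45, with a median of 103 bp), 0.315 when merged across 1000 bp, and 0.128 to 0.522 with 1 library left out. The median distance to the nearest replicate 2 peak was 17032 bp with peaks of at least 500 bp, a setting that drops most replicate 2 peaks. It was 0 bp with 50% cover, which admits regions holding short replicate 2 peaks, and 4140 bp when peaks within 1000 bp were barred. Each of these shifts is in part built in by its setting. With 1 library left out the distance was 3209 to 9795.5 bp.

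The difference in the 5 kb flanks, mutant minus N2, reversed when 1 library was left out, to 3.15 points without N2 replicate 1 and 4.33 points without mutant replicate 2, and was -6.89 points at its lowest. Leaving out a library leaves 1 genotype with a single list and changes the members, so these shifts are in part built in by list size. The difference was -0.386 points with 1 kb and -0.929 points with 20 kb flanks. With a replicate block the difference was -0.956 points (exact sign-flip test over 2 pairs, p = 1; smallest possible 0.5). The labels do not say that a replicate number marks a shared batch. With 2 libraries of each genotype that differ this much in list size, the lists could not show whether same-numbered libraries deviate together.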
